A study of Homo sapiens with 10 samples.

Results

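The insulin-like growth factor 2 receptor gene IGF2R and the IGF binding protein genes IGFBP2 to IGFBP7 were followed in human glioma cell lines in which the homeobox transcription factor MEOX2 was lowered or raised. The genes were chosen by name, as IGF2, its receptor and its binding proteins. Of the 8 names, 7 had a row in the table of 34567 genes, and IGF2 was not analysed here. All 7 passed the filter on low counts, which left 17312 genes for testing.

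IGF2 is a growth factor that signals through the receptor tyrosine kinases IGF1R and INSR. IGF2R, also called the cation-independent mannose phosphate receptor, has no kinase domain: it carries lysosomal enzymes to the lysosome and takes up IGF2 for degradation there. The IGF binding proteins are secreted, hold IGFs in the medium and at the cell surface, and release them when proteases such as pappalysins cut them. They are known in glioma as secreted products of the tumour cells.

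The SNB19 line was transiently transfected with scramble siRNA (NC, n = 3) or with siRNA against MEOX2 (siMEOX2, n = 3). The U87 line was transduced with empty vector lentivirus (EV, n = 2) or with lentivirus carrying MEOX2 (OE, n = 2), and transduced cells were kept under puromycin. All cells were grown in DMEM with fetal bovine serum. Each line received 1 kind of perturbation, so line, delivery and direction cannot be told apart. The labels do not say whether replicates were separate cultures, so p-values measure only the spread between these libraries. The treatment label of 3 U87 samples names other MEOX numbers, and groups were taken from the sample titles. Which of the study's MEOX2 siRNAs was sequenced is not given in the labels.

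Libraries held 12533775 to 16560324 counts each. MEOX2 fell 5.36-fold, from 15.5 ± 1.16 to 2.89 ± 0.367 CPM (counts scaled to the normalised depth of each library, mean ± SD, n = 3 each), with an adjusted p of 9.1e-05 in edgeR's quasi-likelihood test with Benjamini-Hochberg adjustment. In U87 it had 0 counts in both EV libraries and 10307 counts over the OE libraries, at least 3255-fold higher against a floor of 3 counts over the group. Of the 6 glioma or astroglial markers, VIM reached 81.4 to 687 FPKM (fragments per kilobase of gene length, scaled to depth). CD44 reached 13.05 to 74.6, NES 0.187 to 10.5 and SOX2 0 to 14.4 FPKM. GFAP stayed at or under 0.397 and S100B at or under 0.222 FPKM. The epithelial keratin KRT8 reached 45.0 FPKM in SNB19. The summed FPKM of these 6 markers was 212 to 214 in NC and 106 to 111 in siMEOX2. It was 318 to 749 in EV against 185 to 187 in OE. VIM, the highest of the 6 in every library, weighed most in these sums. The 4 epithelial markers summed to 68.9 to 74.2 in NC and 49.8 to 56.8 in siMEOX2, and to at most 1.00 FPKM in U87. The 3 endothelial markers summed to 5.10 to 5.68 in NC and 0.784 to 1.17 in siMEOX2, and to 0.720 to 0.897 in EV and 0.190 to 0.293 in OE. The part of these markers in the results was not tested. Summed blood markers did not pass 0.143 FPKM in any library, and the 3 neuronal markers did not pass a sum of 4.43 FPKM. In bulk RNA, fewer cells of a type and less RNA per cell cannot be told apart.

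The EV replicate 1 library stood apart. Its normalisation factor was 0.695, against 0.950 to 1.13 in the other 9 libraries. Its log2 CPM differed from EV replicate 2 with an SD of 1.14 over genes, against 0.372 to 0.487 in the other replicate pairs. The difference followed gene length, with a Spearman correlation of -0.36 across 17312 genes, which are not independent replicates, and medians from 0.73 in the second decile of length to -0.78 in the longest decile. IGF2R, the longest of the 7 genes, was 1.89 lower on the log2 scale in EV replicate 1. Its length was 17843 bases as implied by counts and FPKM. IGFBP6, the shortest at 1346 bases, was 2.17 higher. Both went beyond the medians of their length deciles (-0.78 and 0.73), at percentiles 7.97 and 93.9 within them. IGFBP5 (-1.41) lay at percentile 8.83 of its decile, and IGFBP7 (0.38), in the decile of IGFBP6, at 39.5. IGFBP2, IGFBP3 and IGFBP4 lay at 79.8, 39.1 and 76.4. Why single genes departed was not tested. For the 7 genes, tests are therefore also given without that library wherever leaving it out changed a call. For the other genes named below this was done only in part. Further calls of those genes changed without that library and are not all given. Without it the remaining EV library is assumed to vary like the other groups.

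**Figure D1:**
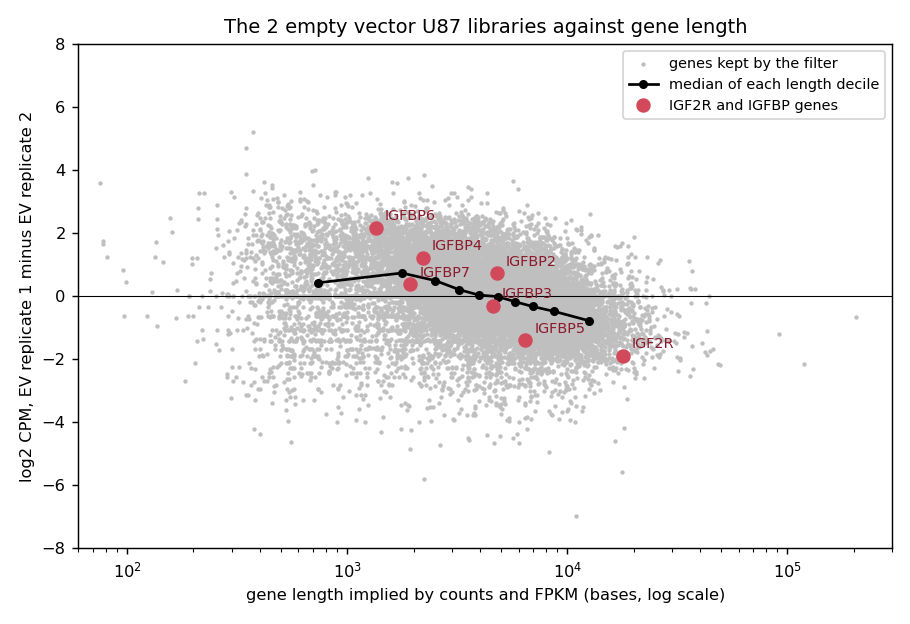
The log2 CPM difference between the U87 EV libraries (replicate 1 minus replicate 2) is plotted against gene length in bases on a log axis, with a grey point per gene, black points for the median of each length decile and red points for the 7 genes. Decile medians run from 0.73 down to -0.78, and IGFBP6 (2.17) and IGF2R (-1.89) lie at the opposite ends.

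By GENCODE 29 on GRCh38, IGFBP2 (chr2:216632828-216664436, plus strand) and IGFBP5 (chr2:216672105-216695525, minus strand) are neighbours transcribed towards each other, with 7669 bases between their ends. IGFBP3 (chr7:45912245-45921874, minus strand) lies 18577 bases from IGFBP1. IGFBP4 is at chr17:40443461-40457731 (plus strand), IGFBP6 at chr12:53097436-53102345 (plus strand), IGFBP7 at chr4:57030773-57110385 (minus strand) and IGF2R at chr6:159969099-160113507 (plus strand). The strand setting of the counting was not given, so reads of IGFBP7 and of the opposite-strand gene POLR2B, which overlaps its span, cannot be told apart where they overlap. The same holds for IGF2R with the pseudogene AL353625.1 (10 to 136 counts) and with AIRN (at most 2 counts).

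The 250 bases before the RefSeq start (GRCh38.p14) are shown for the neighbouring pair that fell together after MEOX2 siRNA, IGFBP2 and IGFBP5, and for the pair that rose, IGFBP3 and IGFBP4. Each is written along the strand of its gene, and capitals mark TAAT (the core letters many homeobox proteins bind), TATAAA and CCGCCC (the core of a GC box) on either strand. For IGFBP2 the most upstream start (chr2:216632578-216632827) is shown. IGFBP5 is chr2:216695550-216695799, IGFBP3 is chr7:45921273-45921522 and IGFBP4 is chr17:40443200-40443449. The IGFBP3 window lies inside the GENCODE span of the gene, and 2 of its bases are in an annotated exon.
IGFBP2: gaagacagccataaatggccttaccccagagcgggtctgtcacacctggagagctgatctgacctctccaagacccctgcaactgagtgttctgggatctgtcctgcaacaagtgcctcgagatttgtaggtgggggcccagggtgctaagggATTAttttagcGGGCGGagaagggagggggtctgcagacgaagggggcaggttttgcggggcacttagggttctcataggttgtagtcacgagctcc
IGFBP5: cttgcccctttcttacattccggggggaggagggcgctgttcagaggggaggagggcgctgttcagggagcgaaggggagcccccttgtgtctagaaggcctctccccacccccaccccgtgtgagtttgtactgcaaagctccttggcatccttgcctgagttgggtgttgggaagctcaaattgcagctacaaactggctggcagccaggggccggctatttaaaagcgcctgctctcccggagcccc
IGFBP3: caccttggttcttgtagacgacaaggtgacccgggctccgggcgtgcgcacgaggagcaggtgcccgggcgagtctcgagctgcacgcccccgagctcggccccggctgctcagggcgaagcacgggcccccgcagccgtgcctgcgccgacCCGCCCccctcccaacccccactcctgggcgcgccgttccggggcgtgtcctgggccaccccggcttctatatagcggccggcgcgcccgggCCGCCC
IGFBP4: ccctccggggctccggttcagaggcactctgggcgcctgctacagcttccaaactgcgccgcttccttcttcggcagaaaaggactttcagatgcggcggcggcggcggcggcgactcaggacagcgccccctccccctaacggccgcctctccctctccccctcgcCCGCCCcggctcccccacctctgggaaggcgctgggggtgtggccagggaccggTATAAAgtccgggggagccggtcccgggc

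In these windows IGFBP2 held 1 TAAT and 1 CCGCCC match, IGFBP3 held 2 CCGCCC matches, IGFBP4 held 1 TATAAA and 1 CCGCCC match, and IGFBP5 held none of the 3 motifs. No match overlapped another. Of 35116 RefSeq promoter windows of the same length, 47.4% held TAAT, 10.7% TATAAA and 42.6% CCGCCC. The GC content was 56.8% for IGFBP2, 61.2% for IGFBP5, 76.0% for IGFBP3 and 71.6% for IGFBP4, against a median of 58.0% over all windows. The IGFBP2 values depend on the start chosen. Its window at chr2:216633170-216633419 held 0 TAAT and 1 CCGCCC match, with 69.2% GC. Its window at chr2:216659317-216659566 held 2 TAAT and 0 CCGCCC matches, with 56.4% GC. A match is a description of letters only.

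Levels were first ordered within each group on the length-corrected FPKM scale. In SNB19 NC cells IGF2R led at 24.5 ± 0.609 FPKM (n = 3), followed by IGFBP6 at 20.4 ± 1.46 and IGFBP2 at 19.7 ± 1.75 FPKM, which overlapped each other. IGFBP3 (8.62 ± 0.178) and IGFBP7 (6.17 ± 0.880) came next, and IGFBP5 (3.13 ± 0.147) and IGFBP4 (2.78 ± 0.770 FPKM) overlapped at the bottom. In siMEOX2 cells IGFBP3 stood second at 23.6 ± 3.64 FPKM and overlapped IGF2R at 28.1 ± 2.51 FPKM, and IGFBP5 was last at 1.00 ± 0.147 FPKM. In U87 the order was led by IGFBP6, at 591 and 179 FPKM in the EV libraries and 114 and 129 FPKM in the OE libraries, while IGFBP5 stayed at or under 0.243 FPKM and IGFBP2 at or under 0.0143 FPKM. IGF2R followed IGFBP6 in OE at 59.7 ± 6.86 FPKM (n = 2), but overlapped IGFBP3 in EV, where its libraries read 7.88 and 40.0 FPKM.

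The summed FPKM of IGFBP2 to IGFBP7 was 60.8 ± 1.97 FPKM in NC and 61.3 ± 0.327 FPKM in siMEOX2 (n = 3 each). The difference lay within the SD of NC but above the SD of siMEOX2. FPKM was not scaled by the normalisation factors, which were 1.05 to 1.06 in NC and 1.10 to 1.13 in siMEOX2. The sums were not compared on the CPM scale, so their near equality holds on the FPKM scale only. The make-up of the sum moved. IGFBP2 made up 32.4% ± 1.88 of the sum in NC and 14.8% ± 1.07 in siMEOX2. IGFBP3 made up 14.2% ± 0.736 in NC and 38.6% ± 5.81 in siMEOX2. IGFBP6, a binding protein that prefers IGF2 over IGF1, held 33.5% ± 1.42 and 27.8% ± 2.44. In U87 it held 95.3% and 82.1% of the sum in the EV libraries and 72.3% and 74.0% in the OE libraries, where IGFBP3 held 23.0% and 20.9%. No test was made on these shares.

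**Figure D2:**
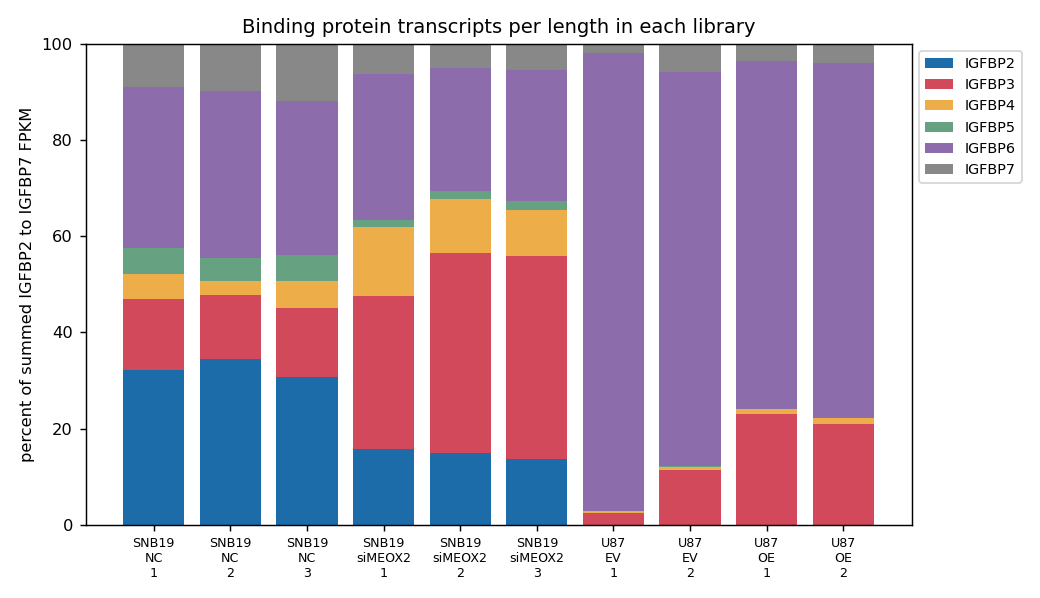
Stacked bars give each gene's percent of the summed IGFBP2 to IGFBP7 FPKM in each of the 10 libraries. IGFBP3 widens from 14.2% in SNB19 NC to 38.6% in siMEOX2, and IGFBP6 takes 72.3% or more of the sum in each U87 library.

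The knockdown comparison asked how the genes differed between siMEOX2 and NC cells of SNB19. IGFBP3 and IGFBP4 rose by 2.57-fold and 2.42-fold, and IGFBP5, IGFBP2 and IGFBP7 fell by 3.32-fold, 2.31-fold and 1.92-fold. IGF2R and IGFBP6 were not called. Thus 5 of 7 genes passed an adjusted p of 0.05, 2 higher and 3 lower, against 15.7% of all genes tested (6.99% higher and 8.75% lower). These shares come from the fit of all 10 libraries, which shares 1 estimate of spread with the U87 EV pair. A fit of the SNB19 libraries alone called 8683 of 15525 genes, and each of the 7 except IGF2R. The excess of calls among the 7 genes therefore depended on the fit. The groups did not overlap for 6 of the 7 genes, against 57% of all genes. The median absolute log2 fold change was 1.21 over the 7 genes and 0.35 over all genes.

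**Figure D3:**
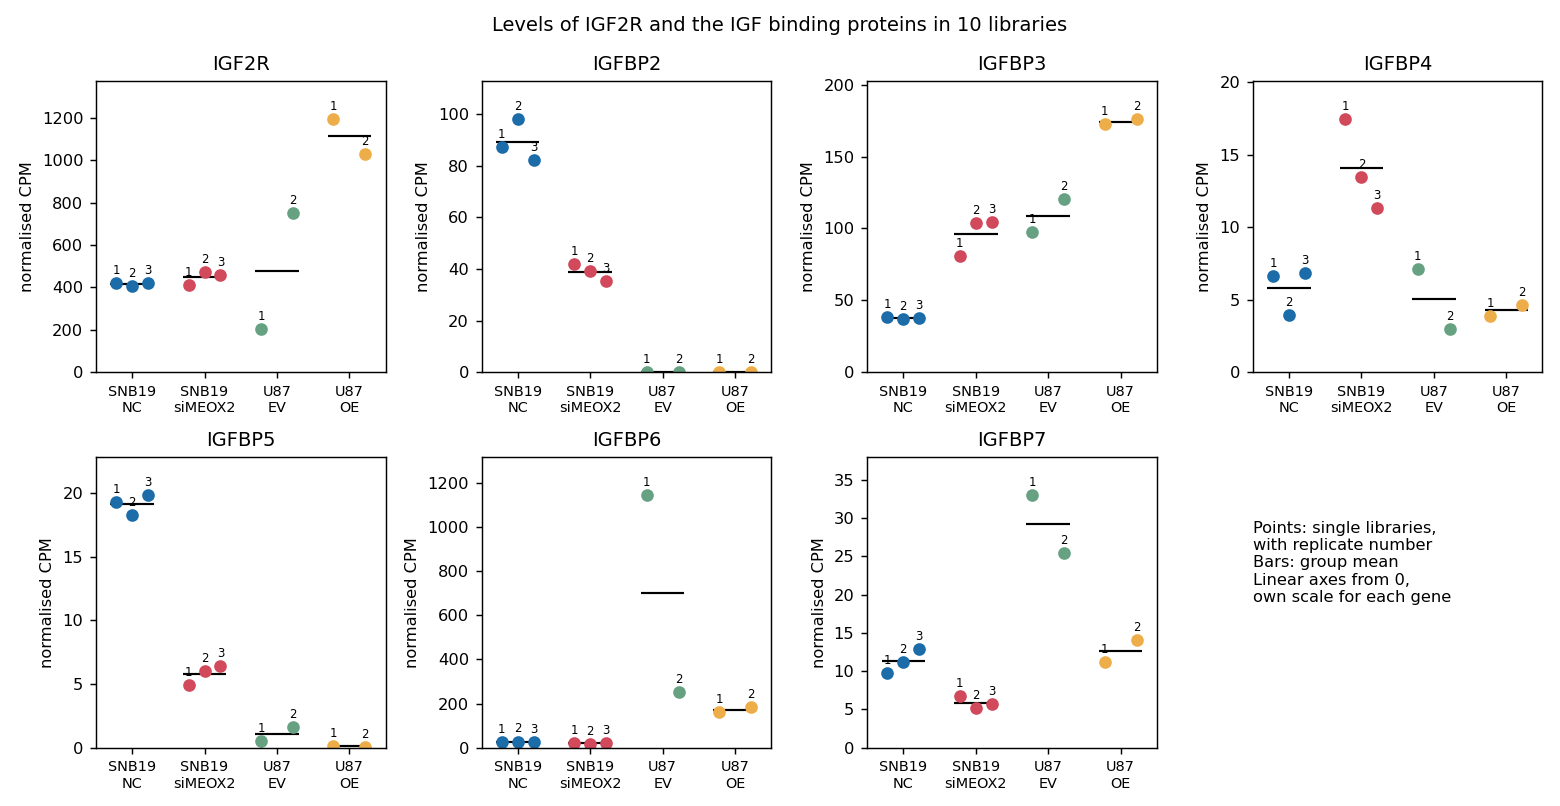
Normalised CPM of each gene (linear axes from 0, a scale per gene) is plotted for every library, with replicate numbers and a bar at the group mean. After MEOX2 siRNA the SNB19 points of IGFBP3 and IGFBP4 lie above NC and those of IGFBP2, IGFBP5 and IGFBP7 below, and the EV replicate 1 point of U87 departs from replicate 2 for IGF2R and IGFBP6.

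IGF2R, the IGF2 clearance receptor, read 421, 405 and 422 CPM in NC replicates 1 to 3 and 410, 473 and 459 CPM in siMEOX2 replicates 1 to 3. The groups overlapped, since siMEOX2 replicate 1 lay within the NC range. The log2 fold change was 0.10 (SE 0.37), with an adjusted p of 0.896 in edgeR's quasi-likelihood test with Benjamini-Hochberg adjustment. Its 95% interval ran from -0.72 to 0.93. This interval is not one of the SNB19 libraries alone: the fit shares 1 estimate of spread with the U87 EV libraries, where IGF2R read 203 and 751 CPM. Without EV replicate 1 the log2 fold change was 0.11. In a fit of the SNB19 libraries alone, IGF2R had an unadjusted p under 0.05 by edgeR but was not called.

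IGFBP3, the main carrier of IGFs in blood, read 38.3, 36.6 and 37.4 CPM in NC and 80.9, 104 and 104 CPM in siMEOX2. Every siMEOX2 library lay above every NC library, and siMEOX2 replicate 1 was the lowest of its group. This was a log2 fold change of 1.36 (SE 0.14, adjusted p = 0.000544 by edgeR). IGFBP4, a binding protein that the protease PAPPA cleaves, read 6.65, 3.95 and 6.80 CPM in NC and 17.5, 13.4 and 11.3 CPM in siMEOX2. Its groups did not overlap either, with siMEOX2 replicate 1 highest and NC replicate 2 lowest. Its log2 fold change was 1.27 (SE 0.33, adjusted p = 0.0293 by edgeR), and also 1.27 without EV replicate 1. The call was kept in 8 of 17 alternative analyses, among them a fit of the SNB19 libraries alone. The IGFBP4 call did not hold when any single SNB19 library or either OE library was left out, nor with a replicate block, with adjusted p-values up to 0.113.

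IGFBP5, which also binds extracellular matrix, read 19.3, 18.2 and 19.9 CPM in NC and 4.93, 5.98 and 6.39 CPM in siMEOX2. All siMEOX2 libraries lay far below the NC libraries, and both groups were tight. On the log2 scale the change was -1.73 (SE 0.25, adjusted p = 0.00272 by edgeR). Its neighbour IGFBP2, a binding protein long linked to glioma grade, read 87.5, 98.2 and 82.2 CPM in NC and 41.8, 39.1 and 35.2 CPM in siMEOX2. The groups were again separate, with a log2 fold change of -1.21 (SE 0.18, adjusted p = 0.00272 by edgeR). The calls of IGFBP2, IGFBP3 and IGFBP5 were kept in each of the 17 alternative analyses.

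IGFBP7, a secreted protein with weak affinity for IGFs, read 9.82, 11.2 and 12.9 CPM in NC and 6.73, 5.18 and 5.70 CPM in siMEOX2. The groups did not overlap, although NC replicate 1 and siMEOX2 replicate 1 were the nearest to each other. Its change was -0.94 on the log2 scale (SE 0.18, adjusted p = 0.00958 by edgeR), and the call was lost without siMEOX2 replicate 2 (adjusted p = 0.0533) or replicate 3 (adjusted p = 0.0504). IGFBP6 read 25.8, 28.1 and 24.3 CPM in NC and 22.8, 18.9 and 19.9 CPM in siMEOX2. All its siMEOX2 values lay below the NC values, but the fit across all 10 libraries, which shares 1 estimate of spread with the U87 EV pair, gave a log2 fold change of -0.35 (SE 0.43, adjusted p = 0.653 by edgeR). Without EV replicate 1 the same difference was called lower (-0.34, SE 0.09, adjusted p = 0.00264 by edgeR), where 47.1% of genes were called.

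The overexpression comparison asked how the genes differed between OE and EV cells of U87. IGFBP3 rose 1.60-fold, and IGFBP5, IGFBP6 and IGFBP7 fell. IGFBP7 fell 2.31-fold and IGFBP6 4.08-fold. The IGFBP6 change was -0.52 on the log2 scale without EV replicate 1. IGF2R, IGFBP2 and IGFBP4 were not called. Thus 4 of 7 genes were called, 1 higher and 3 lower, against 26.2% of all genes (11.3% higher and 14.9% lower). The groups did not overlap for 5 of the 7 genes, against 52.8% of all genes. With EV replicate 1 left out, 5 of 7 were called, against 38.9% of all genes. In a fit of the 4 U87 libraries alone, edgeR called 0 of 14180 genes, while 2643 had an unadjusted p under 0.05, IGFBP7 among them.

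IGF2R read 203 and 751 CPM in EV replicates 1 and 2 and 1196 and 1031 CPM in OE replicates 1 and 2. Both OE libraries lay above both EV libraries, and EV replicate 1 was far below the rest. The log2 fold change of 1.22 (SE 0.45, adjusted p = 0.0745 by edgeR) was not called. It was 0.61 without EV replicate 1 (adjusted p = 2.97e-06 by edgeR) and 2.49 without EV replicate 2 (adjusted p = 8.21e-19), and DESeq2 called it on all libraries with an adjusted p of 0.0293.

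IGFBP3 read 97.3 and 120 CPM in EV and 173 and 176 CPM in OE. The OE libraries were close together and above both EV libraries. IGFBP3 thus had a log2 fold change of 0.68 (SE 0.17, adjusted p = 0.0171 by edgeR) and 0.58 without EV replicate 1 (adjusted p = 0.000135). The edgeR call was lost without OE replicate 1 (adjusted p = 0.0874) or OE replicate 2 (adjusted p = 0.0927).

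IGFBP7 read 33.1 and 25.4 CPM in EV and 11.2 and 14.04 CPM in OE. Both OE libraries lay well below both EV libraries. This gave a log2 fold change of -1.21 (SE 0.22, adjusted p = 0.00474 by edgeR) and -0.96 without EV replicate 1 (adjusted p = 7.15e-05), and the call was lost without OE replicate 1 (adjusted p = 0.0525). IGFBP6 read 1146 and 254 CPM in EV and 160 and 183 CPM in OE. The OE libraries lay below both EV libraries, but EV replicate 2 was much closer to OE than to EV replicate 1. The log2 fold change of -2.03 (SE 0.53, adjusted p = 0.0221 by edgeR) was -0.52 without EV replicate 1 (adjusted p = 0.000111) and -2.71 without EV replicate 2. It was not called without OE replicate 1 (adjusted p = 0.138) or OE replicate 2 (adjusted p = 0.108).

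IGFBP5 was scarce in U87, with 6 and 22 counts in EV (0.535 and 1.64 CPM) and 2 and 1 counts in OE (0.166 and 0.0720 CPM). The OE libraries lay below both EV libraries. Over the groups 28 counts stood against 3, a depth-corrected ratio of 9.85 with a 95% interval of 3.04 to 50.6 that covers counting error only. The fitted log2 fold change was -3.18 (SE 0.67, adjusted p = 0.00923 by edgeR), was -3.70 without EV replicate 1 (adjusted p = 4.08e-05), and was not called without EV replicate 2 (adjusted p = 0.0524) or OE replicate 2 (adjusted p = 0.0795).

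IGFBP4 read 7.13 and 2.99 CPM in EV and 3.90 and 4.61 CPM in OE, so the OE values lay between the EV values. Its log2 fold change was -0.24 (SE 0.43, adjusted p = 0.713 by edgeR) and 0.56 without EV replicate 1 (adjusted p = 0.244). IGFBP2 had 1 and 0 counts in EV and 0 and 1 counts in OE, and a difference was not detectable at this depth.

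**Figure D4:**
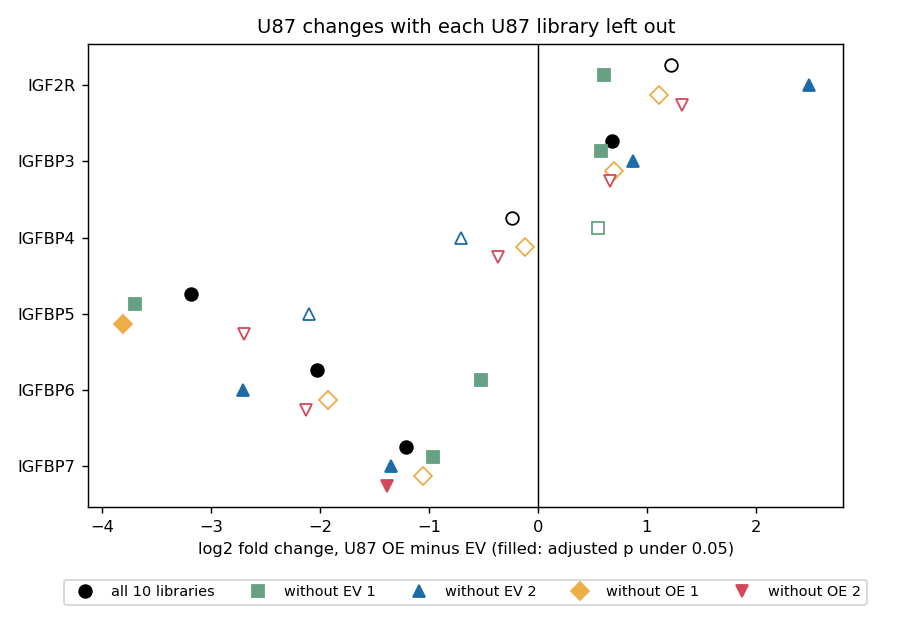
The log2 fold change of U87 OE minus EV is plotted for 6 genes from all 10 libraries and with each U87 library left out, with filled symbols for an adjusted p under 0.05. IGF2R spans 0.61 to 2.49 and IGFBP6 spans -2.71 to -0.52 by which EV library is kept, while IGFBP3 stays above 0 and IGFBP7 below 0 in all 5 fits.

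The control cells of the lines were then compared as NC minus EV, a baseline in which line, transfection and transduction cannot be told apart and which uses the same control libraries as the other comparisons. IGFBP2 and IGFBP5 were higher in SNB19, and IGFBP6, IGFBP3 and IGFBP7 were higher in U87. These 5 of 7 genes were called, 2 higher and 3 lower in SNB19, against 56.9% of all genes (28.1% higher and 28.8% lower), so calls were common in this comparison for any gene. Groups did not overlap for 5 of the 7, against 66% of all genes.

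IGFBP2 set the lines apart most, with 4285 counts over the NC libraries and 1 over the EV libraries, a depth-corrected ratio of 2186 with a 95% counting interval of 392 to 86375. IGFBP5 was 17.0-fold higher in NC (log2 4.09, SE 0.36, adjusted p = 1.68e-05 by edgeR), with a log2 difference of 3.53 without EV replicate 1. Both genes of the chromosome 2 pair were thus lower in U87 than in SNB19. Of the 7 genes they also had the largest fall after MEOX2 siRNA, against the same NC libraries. With MEOX2 raised in U87 they were not higher: IGFBP5 was lower in OE than in EV (log2 -3.18), and IGFBP2 had 1 count over the OE libraries. IGFBP6 was lower in NC by a log2 difference of -4.75 (SE 0.50, adjusted p = 5.07e-05 by edgeR), which was -3.29 without EV replicate 1. IGFBP3 differed by -1.54 (SE 0.15, adjusted p = 2.93e-05 by edgeR) and IGFBP7 by -1.37 (SE 0.19, adjusted p = 0.000331), and both kept their calls without EV replicate 1, at -1.69 and -1.18.

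IGFBP4 (0.21, SE 0.38, adjusted p = 0.653 by edgeR) and IGF2R (-0.20, SE 0.41, adjusted p = 0.699) were not called between the lines. Both were called without EV replicate 1, IGFBP4 at 0.96 (adjusted p = 0.0113 by edgeR) and IGF2R at -0.86 (adjusted p = 1.97e-10), where 63.4% of genes were called. Without EV replicate 2, IGF2R was called in the opposite direction at 1.01 (adjusted p = 5.3e-11). The direction of the IGF2R baseline difference therefore turned on which EV library was kept.

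To compare the lines directly, each perturbation was read as more MEOX2 minus less, that is OE minus EV in U87 and NC minus siMEOX2 in SNB19, and the difference of these changes was tested. For IGFBP3 the change with more MEOX2 was 0.68 in U87 and -1.36 in SNB19, since it was higher in siMEOX2 and also higher in OE than in the matched controls. For IGFBP7 it was -1.21 in U87 and 0.94 in SNB19, and for IGFBP5 -3.18 and 1.73, so both genes fell under knockdown and under overexpression. For IGFBP6 it was -2.03 in U87 and 0.35 in SNB19, the latter not called.

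The difference was 2.04 for IGFBP3 (SE 0.22, adjusted p = 0.000288 by edgeR), -4.91 for IGFBP5 (SE 0.69, adjusted p = 0.00122), -2.15 for IGFBP7 (SE 0.29, adjusted p = 0.000935) and -2.37 for IGFBP6 (SE 0.67, adjusted p = 0.0316). These were 4 of 7 genes, against 24.4% of all genes (10.2% higher and 14.2% lower). Without EV replicate 1 the differences were 1.95, -5.43, -1.90 and -0.86 in the same order, all called, with IGF2R (0.72, adjusted p = 2.85e-06 by edgeR) and IGFBP4 (1.82, adjusted p = 0.000332) called as well, against 43% of all genes. The IGFBP6 call was lost when any SNB19 or OE library was left out. On all libraries IGF2R (1.33, SE 0.58, adjusted p = 0.125 by edgeR), IGFBP4 (1.04, SE 0.54, adjusted p = 0.185) and IGFBP2 (-1.27, SE 1.52, adjusted p = 0.68) were not called.

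**Figure D5:**
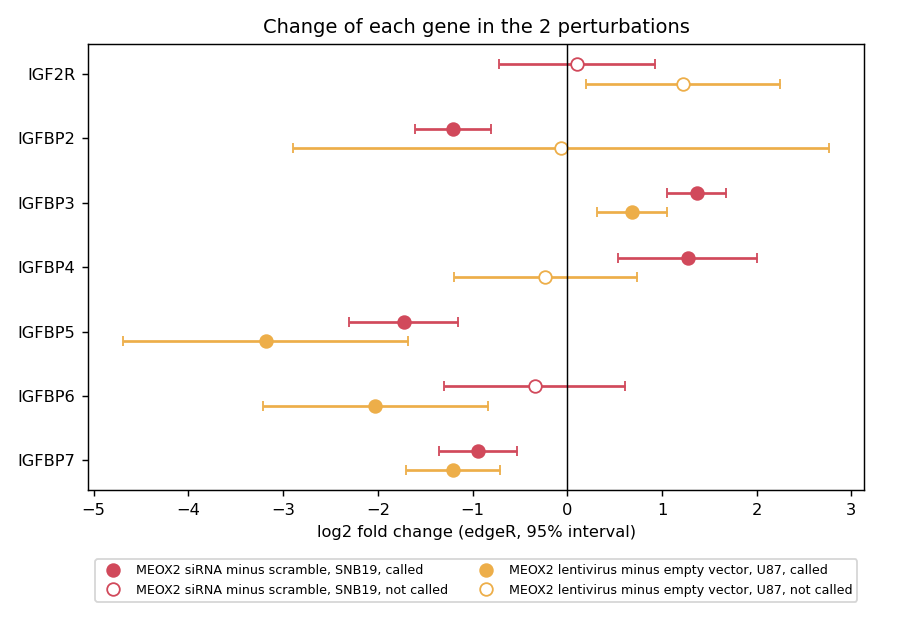
The log2 fold change of each gene with its 95% interval is plotted for MEOX2 siRNA minus scramble in SNB19 (red) and MEOX2 lentivirus minus empty vector in U87 (yellow), with filled points for an adjusted p under 0.05. IGFBP3 is above 0 (1.36 and 0.68), and IGFBP5 (-1.73 and -3.18) and IGFBP7 (-0.94 and -1.21) are below 0, in both.

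Other genes of the IGF system were read from lists of pathway genes. Of the remaining ligands, receptors and binding proteins, 3 of 8 could be tested. After siRNA 0 of these were called by edgeR, against 15.7% of all genes, with 0 at an unadjusted p under 0.05 and 0 by DESeq2. IGF1 had at most 2 counts in any library group, and H19, the imprinted RNA next to IGF2, had at most 6 counts in any library, so neither was tested. The signalling receptor IGF1R read 57.4 ± 2.44 CPM in NC and 45.7 ± 1.05 CPM in siMEOX2 (log2 -0.33, SE 0.23, adjusted p = 0.388 by edgeR). Leaving out EV replicate 1 made this difference a call (-0.32, adjusted p = 0.000398 by edgeR). IGF1R was 2.86-fold higher in NC than in EV (adjusted p = 0.00137 by edgeR), and by 1.06 on the log2 scale without EV replicate 1. INSR was not called in any of the comparisons on all libraries. It was called lower in NC than in EV without EV replicate 1 (-0.26, adjusted p = 0.0384 by edgeR). IGFBP1, next to IGFBP3 on chromosome 7, had 0 counts in all SNB19 libraries, 51 and 43 counts in EV and 100 and 129 counts in OE. It was higher in OE (log2 1.18, SE 0.32, adjusted p = 0.0487 by edgeR, and 1.49 without EV replicate 1), and at least 61.4-fold higher in EV than in NC against the floor of 3 counts over the group.

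Of the 10 genes for binding protein proteases and their inhibitors, 2 rose and 2 fell after siRNA, where 6.99% of all genes rose and 8.75% fell. With overexpression 3 of the 10 rose and 2 fell, against 11.3% and 14.9% of all genes. STC2, a stanniocalcin that inhibits pappalysins, rose 3.52-fold in siMEOX2 (log2 1.82, SE 0.13, adjusted p = 9.82e-05 by edgeR). It also rose 10.3-fold in OE (log2 3.36, SE 0.16, adjusted p = 1.2e-05), from 117 and 139 CPM in EV to 1330 and 1294 CPM. The pappalysin PAPPA2 rose in both as well, by log2 2.42 (adjusted p = 0.0379 by edgeR) from at most 5 counts in each NC library and by 2.00 (adjusted p = 0.00767) in U87, or 1.48 without EV replicate 1. The stanniocalcin STC1 rose in OE (1.30, adjusted p = 0.0179 by edgeR, and 0.87 without EV replicate 1). The protease HTRA1 fell in both, with log2 changes of -1.11 (adjusted p = 0.00137) and -1.29 (adjusted p = 0.00113), and the gelatinase MMP2 fell with changes of -2.01 (adjusted p = 6.92e-05) and -0.69 (adjusted p = 0.0113). STC1, STC2, PAPPA2, HTRA1 and MMP2 kept these calls and directions without EV replicate 1.

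Without EV replicate 1, 9 of the 10 genes were called after siRNA, against 47.1% of all genes in that fit, and 8 of 10 in OE, against 38.9% of all genes. Its median log2 fold change on all libraries was -0.17 after siRNA and -0.18 in OE, against -0.0013 and -0.02 over all genes. In the baseline 6 of the 10 were lower in NC than in EV, against 28.8% of all genes, among them PAPPA at 12.6 against 97.5 CPM (log2 -2.96, adjusted p = 0.000538 by edgeR, and -3.65 without EV replicate 1). Without that library 8 of the 10 log2 differences were negative, and those of CTSD (0.59) and HTRA1 (0.13) were positive.

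In the list of 13 tested genes for receptor signalling, edgeR called 0 after siRNA on all libraries (2 at an unadjusted p under 0.05, and 2 by DESeq2), and IRS2, an adaptor of the insulin and IGF receptors, FOXO1 and FOXO3 rose in OE. For this and the next lists, the share of all genes called on all libraries was 15.7% after siRNA and 26.2% in OE. In lists this short, few or no calls say little. IRS2 rose 9.58-fold in OE (log2 3.26, SE 0.49, adjusted p = 0.00199 by edgeR), and by 2.63 on the log2 scale without EV replicate 1. FOXO1 and FOXO3 were called higher there too (0.90 and 0.55). Without that library 9 of the 13 were called after siRNA, 1 higher and 8 lower, against 47.1% of all genes, so this count turned on the EV pair. The list median was -0.22 after siRNA and 0.65 in OE. Of 5 tested regulators of the IGF2 locus and IGF2 mRNA, HMGA2 fell after siRNA (log2 -0.98, adjusted p = 0.0035 by edgeR), and IGF2BP2 (0.81, adjusted p = 0.024) and HMGA2 (0.56, adjusted p = 0.0493) rose in OE, with list medians of 0.06 and 0.56. Without EV replicate 1 the OE changes of IGF2BP2, HMGA2 and LIN28B were 0.52, 0.35 and 0.96, and those of IGF2BP3 and PLAG1 were -0.35 and -0.15. On all libraries IGF2BP3 and PLAG1 stood at 0.50 and 0.26 in OE, so their direction turned on the EV pair. Of 10 genes that tag lysosomal enzymes or sort IGF2R, edgeR called 0 after siRNA on all libraries (4 at an unadjusted p under 0.05, and 3 by DESeq2), and GGA2 rose (0.60, adjusted p = 0.0156) and NAGPA fell (-1.01, adjusted p = 0.0225) in OE. The NAGPA call in OE was lost without EV replicate 1 (-0.45, adjusted p = 0.0624 by edgeR), while that of GGA2 was kept (0.49). In that fit 5 of these 10 genes were called after siRNA, close to the 47.1% of all genes, and 6 in OE, all higher, against 38.9% of all genes called in either direction. The list medians were -0.12 after siRNA and 0.27 in OE.

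Between the control cells, 5 of the 13 signalling genes were higher and 1 lower in NC, against 28.1% and 28.8% of all genes, led by FOXO1 (log2 3.23, adjusted p = 8.59e-05 by edgeR, and 2.63 without EV replicate 1). Without that library 6 of the 13 log2 differences were negative, from -0.19 for GRB2 to -1.32 for IRS1, and the rest were positive. IRS1 and AKT1 stood at -0.64 and -0.71 on all libraries and at -1.32 and -1.29 without it, so their size turned on the EV pair. Of the IGF2 regulators, 3 of 5 were lower in NC: HMGA2 (-2.30, adjusted p = 4.82e-06), PLAG1 (-2.89, adjusted p = 8.79e-05) and LIN28B, which had no counts in NC and 4.81 CPM in EV. All 5 log2 differences were negative without EV replicate 1, with HMGA2 at -2.56, PLAG1 at -3.35, IGF2BP3 at -0.69 and IGF2BP2 at -0.21. Of the sorting genes, VPS29 was lower in NC (-0.85, adjusted p = 0.0416), a call not kept without EV replicate 1. The change with more MEOX2 differed between the lines by 5.18 for STC2 (adjusted p = 3.23e-06 by edgeR), 4.42 for PAPPA2 (adjusted p = 0.00341), 4.02 for IRS2 (adjusted p = 0.00179) and -2.70 for MMP2 (adjusted p = 4.92e-05). Without EV replicate 1 these were 5.10, 3.90, 3.40 and -2.75, all called.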

How the data were processed

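Poly-A RNA of SNB19 and U87 cells was sequenced as paired-end libraries made with a kit whose strand setting was not stated. Per the labels, the authors aligned reads to GRCh38 with HISAT2, counted them per gene with HTSeq 0.11.2 and list DESeq2 1.26.0. The whole-number counts were deposited unnormalised in a table that also holds the FPKM values the authors made from them (counts scaled to library depth and gene length). All 34567 gene IDs matched GENCODE 29, which gave loci.

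Counts were tested with edgeR 4.0.16 in R 4.3.3: TMM normalisation, filterByExpr, and the quasi-likelihood F test on 1 fit of all 10 libraries in 4 groups without covariates, with Benjamini-Hochberg adjustment over 17312 genes and calls at an adjusted p under 0.05. SE is the absolute log2 fold change divided by the square root of F. CPM is per TMM-scaled library size. FPKM, which is not TMM-scaled, was used to compare genes with each other and for the marker sums, the summed binding protein levels and their shares. Intervals of count ratios are exact at 95% and cover counting error only, and floors are 3 counts. Promoter windows came from RefSeq, which matched 6 of the 7 genes.

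Each of the 7 genes was named throughout, with MEOX2, IGF1, IGF1R, INSR, IGFBP1, H19 and, from each list and comparison, up to 3 called genes of largest absolute change. HTRA1, POLR2B, and MMP2 in OE were named beyond this rule after their values were seen. The genes and lists were chosen with earlier results of these data known. Alternatives were other scalings, no low-count filter, DESeq2 1.42.0, a replicate block, only the libraries compared, a fold rule and leaving out each library. The edgeR script was tested on simulated data.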

Additional observations from a re-analysis of the deposited data

Results flagged for a closer look

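Of the 7 genes, 4 had an effect that differed between the lines by a test of the difference itself (edgeR's quasi-likelihood test, Benjamini-Hochberg over 17312 genes, of which 24.4% were called, and 43% without EV replicate 1), when each perturbation is read as more MEOX2 minus less, U87 minus SNB19. IGFBP3 differed by 2.04 on the log2 scale, IGFBP5 by -4.91, IGFBP7 by -2.15 and IGFBP6 by -2.37. The IGFBP5 value rests on 28 counts in EV and 3 in OE. Against its own controls, IGFBP3 was higher in both perturbations (1.36 after siRNA and 0.68 in OE). IGFBP5 (-1.73 and -3.18) and IGFBP7 (-0.94 and -1.21) were lower in both. For these genes the tested difference thus arises from reading the siRNA change in reverse, as more MEOX2 minus less. For IGFBP3, IGFBP5 and IGFBP7 the call was kept in each of the 16 alternatives tried. For IGFBP6 it was lost in 9 of 16, with adjusted p-values up to 0.121, and its value was -0.86 without EV replicate 1. In every library of IGFBP3, IGFBP5, IGFBP6 and IGFBP7 the perturbed cells lay on 1 side of their own controls, which 57% of all genes did in the knockdown and 52.8% in overexpression. Line, transfection, transduction and selection cannot be told apart in this design.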

How the results depend on the processing

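With a replicate block, 3 of the 7 genes and 972 genes in all were called after siRNA, 2 and 2126 in OE, and 2215 genes for the difference between lines, where 3 of the 7 were called. The block cost IGFBP4 and IGFBP7 their siRNA calls, IGFBP3 and IGFBP6 their OE calls and IGFBP6 its call between lines. Same-numbered SNB19 libraries had correlations of deviations of 0.04, 0.0026 and 0.06, not every library correlated best with its own number, and the U87 pair had -0.16, so the numbers were not taken as pairs. With the U87 numbers crossed, chosen after seeing the data, 5 of the 7 and 3710 genes were called in OE. A fit of only the libraries compared called 8683 genes and 6 of the 7 after siRNA. It called 0 genes in OE, where only 5 of the 7 passed its filter and were tested. It was not run for the difference between lines, which needs all libraries.

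With each library left out in turn, calls among the 7 ranged from 3 to 6 after siRNA (1148 to 8700 of all genes), 1 to 5 in OE (1553 to 10929), 5 to 7 in the baseline (8219 to 13539) and 3 to 6 for the difference between lines (2265 to 10435). The counts over all genes were highest without EV replicate 2 in all 4 comparisons. The baseline of IGF2R ranged from -0.86 without EV replicate 1 to 1.01 without EV replicate 2, a reversal. The cause was not tested.

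Scaling by library size only moved the calls higher and lower to 1310 and 987 after siRNA (from 1210 and 1515), 2022 and 1771 in OE (from 1951 and 2587), 6008 and 3300 in the baseline (from 4858 and 4985) and 2064 and 1564 between lines (from 1771 and 2458), with a median over all genes of 0.37 in the baseline, 0.14 in OE and 0.25 between lines. The number of the 7 genes called did not move under that scaling or under DESeq2's size factors. DESeq2 and the fit without a low-count filter each called IGF2R in OE as well. So did the fold rule (a fold above 2 with an unadjusted p under 0.05), which also called IGF2R between lines. That rule dropped IGFBP3 in OE and IGFBP7 after siRNA. With 2 libraries a group in U87, IGFBP2 and IGFBP5 had too few counts there for more than the intervals given.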

Other observations

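For each of the 7 genes, the genes with the closest pattern were found as those with the smallest root mean square difference in log2 CPM over the 10 libraries, each gene centred on its own mean. They are given as likeness over these libraries only, which share depth and the EV replicate 1 library, and since they were picked for that likeness their own changes are not tested. The closest match of all was TROVE2 to IGF2R, at 0.11, followed by LPP (0.14) and NBEA (0.14). IGFBP3 was most like TTC32 (0.13), then AARS (0.15), an alanyl-tRNA synthetase, and PLEKHB2 (0.20). IGFBP7 was most like FAM129B (0.15). For IGFBP5 the closest gene was PLXND1, a semaphorin receptor, at 0.43, for IGFBP2 it was VWA1 at 0.26, for IGFBP4 GVQW2 at 0.28 and for IGFBP6 TWIST2 at 0.28.

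The genes that flank the IGFBP2 and IGFBP5 pair were read as well. Beside IGFBP2, RPL37A was not called after siRNA (-0.14, adjusted p = 0.876, edgeR), and beyond IGFBP5, at 588.5 kilobases, DIRC3 was not called either (0.73, adjusted p = 0.697, edgeR). POLR2B, whose span overlaps IGFBP7 on the opposite strand, had values of 0.23 after siRNA (adjusted p = 0.717, edgeR) and 0.34 in OE (adjusted p = 0.565, edgeR), where IGFBP7 fell in both.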
